A study of Danio rerio with 5 samples.

Results

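In zebrafish embryos, 254 genes had transcripts at least 5-fold scarcer at 5.3 hours post-fertilisation (hpf) than at 4 hpf. They came from 8079 genes with enough counts to qualify and 22656 genes in the deposited table. The 254 genes were chosen by their own stage ratio. Levels are in CPM, each gene's counts scaled to a common total of the library's counts on nuclear genes. A gene qualified with at least 20 counts in each 4 hpf library, and became a member when its mean CPM at 4 hpf was at least 5 times its mean at 5.3 hpf. Mitochondrial genes and microRNA genes were left out. Because the 4 hpf against 5.3 hpf ratio chose the members, their falls are given below as a description with no test. The working name of the group is maternal transcripts, but no library came from an egg or from an embryo before genome activation, so maternal origin was not measured.

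An egg stocks its cytoplasm with messenger RNA made during oogenesis, and this maternal RNA directs the first cleavages while the embryonic genome is silent. Around the mid-blastula transition (MBT) the genome is switched on and a large share of the maternal stock is destroyed. In zebrafish this clearance is known to act through shortening of the poly(A) tail by the CCR4-NOT deadenylase, through the zygotic microRNA family miR-430, and through the codon content and base modification of the messages.

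The libraries came from embryos of the Tübingen strain with chorion and yolk removed, at 4 hpf (sphere stage, called MBT; 3 libraries) and at 5.3 hpf (30% epiboly, called post-MBT; 2 libraries). The labels name no mutation, transgene or treatment. Random-primed libraries were made from 5 ng of total RNA. How far the counts depend on poly(A) tail length was not tested. The count columns name a stage but no single sample, so the 4 hpf libraries are named MBT A, B and C here, and those of 5.3 hpf post-MBT A and B. Total counts ranged from 2488983 to 3701401, of which nuclear genes held 1329104, 2075880 and 1374662 counts at the MBT and 1800872 and 1554414 after it. The labels do not state whether each library had its own clutch of eggs. Errors and p-values therefore reflect variation among libraries, some of which may be technical. The values are relative and the cells of the embryos were not separated. Fewer cells with a transcript and less of it per cell therefore cannot be told apart.

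The 254 members together held 1.69, 1.79 and 1.74% of nuclear counts in MBT A, B and C (1.74% ± 0.0493, SD, n = 3). They held 0.270% in both post-MBT libraries (0.270% ± 0.0004, SD, n = 2), a share 6.44 times smaller. The same libraries chose the members, so the closeness of these shares is no separate measurement.

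**Figure D1:**
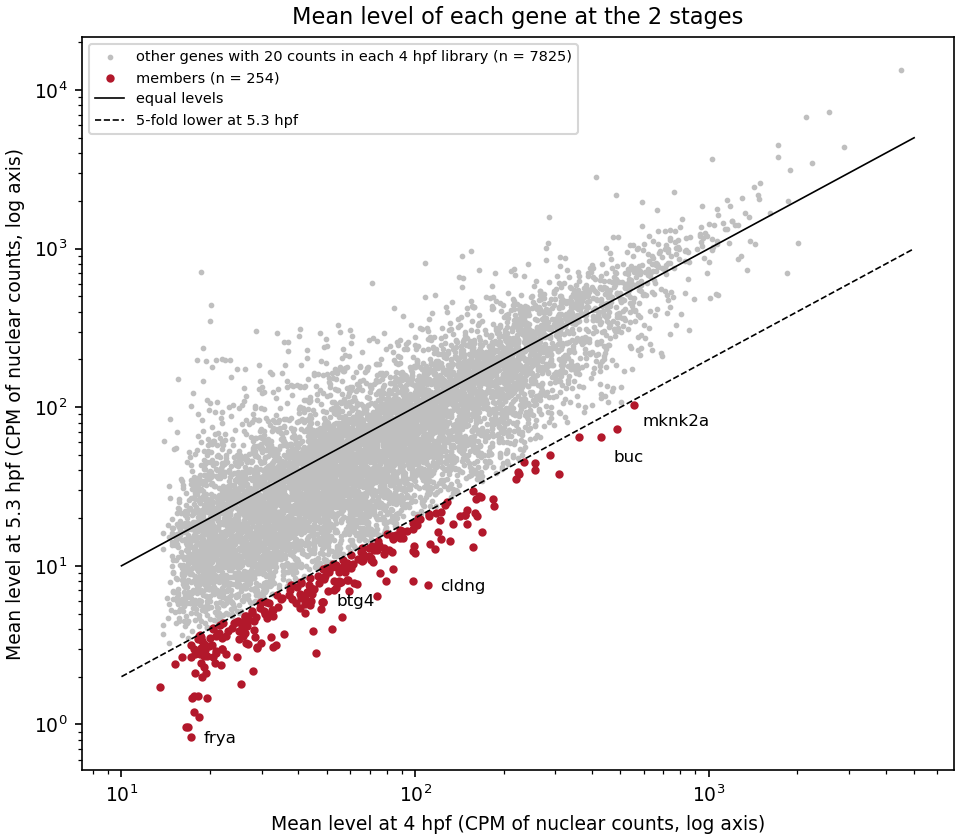
Mean level of each of the 8079 qualifying genes at 4 hpf (x axis) and 5.3 hpf (y axis), both in CPM of nuclear counts on log axes. Red points are the 254 members, grey points the other 7825 genes, the solid line marks equal levels and the dashed line a 5-fold fall. Members run along the lower edge of the cloud from the count limit up to mknk2a, at 557 CPM, and no member lies above that level.

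Members made up 3.14% of the qualifying genes. Their fold had a median of 6.25 with quartiles of 5.58 and 7.50, while the median over all qualifying genes was 1.32. Of the members, 103 fell between 5- and 6-fold, 232 between 5- and 10-fold and 22 by 10-fold or more. Falls past 15-fold were seen in 5 members. The group is the end of a continuous range. A fall of at least 2-fold was met by 2258 qualifying genes (27.9%), of at least 3-fold by 1010 (12.5%) and of at least 4-fold by 493 (6.10%). On a scale set by TMM factors, which raise the 5.3 hpf levels, 147 of the 254 members kept a 5-fold ratio.

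Just inside the limit lay the clone-named si:dkey-77f17.1 at 5.00-fold, the transcription factor gene sox9b at 5.05-fold, the glutamate transporter gene slc1a2b at 5.06-fold and the oocyte gene zar1l at 5.06-fold. Just outside lay the tropomyosin gene tpm1 at 4.999-fold, the acetyl-CoA acetyltransferase gene acat1 at 4.99-fold, ssfa2 at 4.97-fold and ica1 at 4.97-fold. Counting error alone is wider than these steps. The 95% exact interval of the summed counts had its lower bound at 5-fold or more in 58 members, and its upper bound reached 5-fold in 402 genes outside the rule. It was wholly above 5-fold in 0 genes outside the rule. These intervals cover counting error only, since PCR copies are not independent molecules.

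The libraries of the stages did not overlap in any of the 254 members. Non-overlapping libraries with the higher values at 4 hpf were also seen in 56% of all qualifying genes, and the ratio chose the members, so nothing is read from this count. The lowest MBT library exceeded the highest post-MBT library by at least 3-fold in 248 members and by at least 5-fold in 113. The narrowest gap was 2.46-fold. After the MBT the members had few counts. Their sum over both post-MBT libraries had a median of 23.5, with 40 members at 10 counts or fewer and 52 at 50 or more. No member was at 0 in both post-MBT libraries, and 4 were at 0 in a single one (frya, mthfd2l, si:ch211-11i22.4 and LOC100534706).

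The choice was repeated without each library in turn, and the fold was then read in the library that had not been used. Leaving out post-MBT A gave 303 genes, 216 of them members. Their median fold was 6.39 in the libraries used and 5.38 against post-MBT A, where 169 of the 303 reached 5-fold and 283 reached 3-fold. Leaving out post-MBT B gave 289 genes, 207 of them members, with medians of 6.41 and 5.50. In post-MBT B, 169 of those 289 reached 5-fold and 4 were under 2-fold. These folds share the 4 hpf mean that chose the genes, so they are not independent of the choice, and the median was smaller in the unused library. Genes chosen without a post-MBT library held 0.350% of nuclear counts in post-MBT A and 0.357% in post-MBT B when that library was the unused one. For an unused MBT library, where the 5.3 hpf mean is shared, the medians were nearer to each other. They were 6.30 and 5.85 without MBT A (293 genes), 6.25 and 6.43 without MBT B (251 genes), and 6.30 and 6.05 without MBT C (280 genes). None of the genes chosen without a library was higher at 5.3 hpf in that library.

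**Figure D2:**
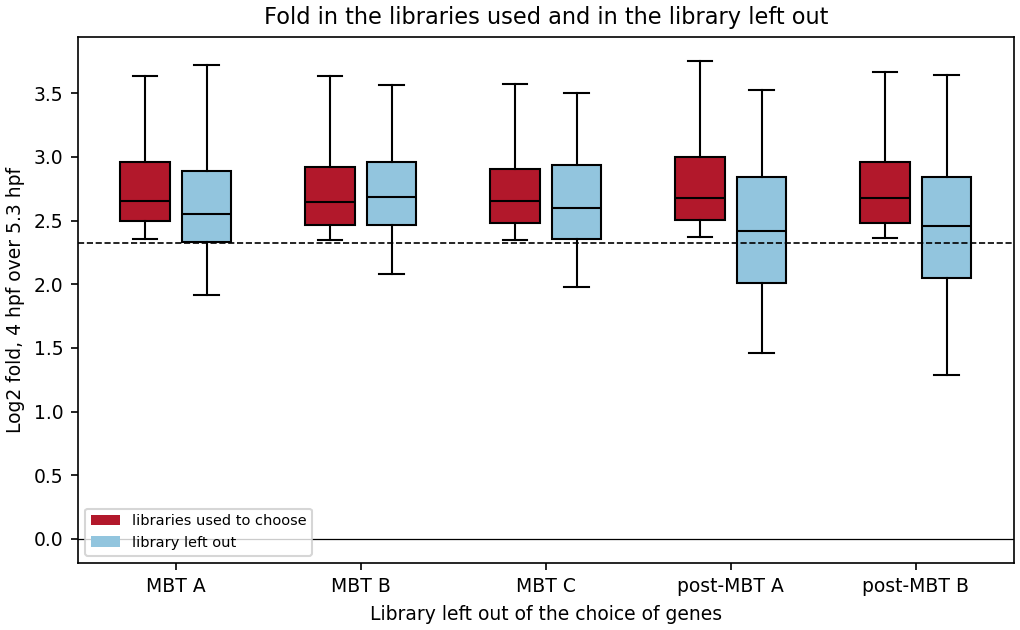
Log2 fold of 4 hpf over 5.3 hpf (y axis) for genes chosen without 1 library (x axis). Red boxes show the fold in the libraries used, blue boxes the fold when the unused library stands for its stage. Boxes span the quartiles with the median as a line, whiskers run from the 5th to the 95th percentile, the dashed line marks 5-fold and the solid line equal levels. The blue medians are 5.38-fold and 5.50-fold for the post-MBT libraries and 5.85-fold to 6.43-fold for the MBT libraries.

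Some genes known from eggs and oocytes were among the members. Of a list of 52 maternal-effect and oocyte gene symbols, 47 were in the deposited table and 41 qualified. Of these 41, 9 were members (21.95%, against 3.14% of all qualifying genes). The list was written with earlier results of these data known, so its share is not independent evidence. The 9 are buc, ca15b, mid1ip1l, cldnd, cldng, btg4, zar1l, bmp15 and mos.

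The gene buc (chromosome 2, 28199472 to 28203559; build D_rerio_Sep_2014, starts counted from 1) encodes Bucky ball, the protein that builds the Balbiani body and germ plasm of the zebrafish oocyte. Its level was 413, 443 and 428 CPM in the 3 MBT libraries and 57.7 and 72.7 CPM in the 2 post-MBT libraries, a 6.56-fold fall with a counting interval of 5.78 to 7.69. Its counts fell from 549, 919 and 589 to 104 and 113, among the deepest of the group. The germ plasm transcript ca15b (chromosome 12, 4258262 to 4265076), named for its likeness to carbonic anhydrases, was at 211, 247 and 215 CPM at the MBT and 37.2 and 40.5 CPM after it. The gene mid1ip1l (chromosome 14, 41099115 to 41101739), whose zebrafish mutant aura fails to gather germ plasm in the early embryo, was at 324, 289 and 312 CPM and then at 35.5 and 39.9 CPM. For these germ plasm genes every MBT library was more than 5 times any post-MBT library. Of the other germ plasm genes tested, dazl (-1.51), nanos3 (-1.13) and dnd1 (-0.76) fell by edgeR's quasi-likelihood test (log2 fold changes on the TMM scale, adjusted p of 2.43e-09, 0.00518 and 0.00359), and the helicase gene ddx4 had no call (0.07 ± 0.11, adjusted p = 0.61).

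The claudin genes cldng (chromosome 1, 32912640 to 32914542) and cldnd (chromosome 21, 25740839 to 25741593) encode tight junction proteins. The level of cldng was 97.1, 129 and 105 CPM in the MBT libraries and 10.0 and 5.15 CPM in the post-MBT libraries. This 14.6-fold fall, with an interval of 9.86 to 22.6, was the steepest among the listed egg genes. The level of cldnd was 132, 163 and 148 CPM and then 20.5 and 21.2 CPM, with close agreement between both libraries at 5.3 hpf.

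Regulators of oocyte RNA and of meiosis were also members. The gene btg4 (chromosome 5, 57254640 to 57256390), which in mammalian eggs links the CCR4-NOT deadenylase to maternal messages, stood at 80.5, 89.6 and 69.1 CPM and then at 7.77 and 8.36 CPM, a 9.88-fold fall (6.83 to 15.5). The zygote arrest gene zar1l, an RNA-binding factor of oocytes, was at 64.7, 62.1 and 70.6 CPM and then 10.6 and 15.4 CPM. The relative zar1, by contrast, had no call, at 20.3, 31.3 and 28.4 CPM in the MBT libraries and 20.5 and 14.8 CPM after (log2 fold change -0.33 ± 0.26, edgeR adjusted p = 0.261). The difference between the relatives was not tested. The kinase gene mos, which holds the mature egg in meiotic arrest, was at 30.1, 29.4 and 27.6 CPM and then 2.22 and 3.86 CPM. Its post-MBT values rest on 4 and 6 counts. The oocyte growth factor gene bmp15 was at 65.5, 79.5 and 64.0 CPM and then 8.33 and 14.8 CPM.

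Among listed egg genes that missed the rule, 36 were tested, and 25 of them fell, 5 rose and 6 had no call by edgeR. Over all 12007 tested genes, 31.8% fell and 31% rose at an adjusted p under 0.05 (3813 and 3724 genes, on the TMM scale). With nuclear totals, the scale of the CPM given here, 5045 fell and 2703 rose, and with library totals 5574 fell and 2173 rose. All 254 members were also called as falls, which the choice fixes. The largest log2 fold changes outside the rule were birc5b, a survivin gene needed for germ plasm gathering (-2.91 ± 0.61, with too few counts at 4 hpf to qualify), tdrd1 (-1.88 ± 0.14) and asz1 (-1.85 ± 0.22), both of the piRNA pathway, and zfyve26 (-1.76 ± 0.20). The rises were the Y-box RNA-binding gene ybx1 (1.60 ± 0.07), magi1b (1.60 ± 0.11), tdrd9 (0.41 ± 0.17), ddx43 (0.40 ± 0.14) and the kinesin gene kif5ba (0.36 ± 0.10). The edgeR adjusted p of these named genes ranged from 2.70e-33 to 0.0278. Among these listed genes 28 fell and 2 rose with nuclear totals, 30 fell and 2 rose with library totals, and 3 rose without post-MBT B.

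Some members under clone or locus names have RefSeq names of germ cell, oocyte or RNA-related families. They were picked from 62 such members and named from the RefSeq gene table after their values were seen. Whether their transcripts are particular to oocytes was not measured. LOC100537720 is listed there as buc2l, a relative of buc recorded as a non-coding RNA, and was at 239, 288 and 242 CPM and then 37.8 and 42.5 CPM. LOC100536102 is tdrd6b, of the Tudor family that organises germ granules, at 200.1, 243 and 219.7 CPM and then 31.1 and 39.9 CPM. Its relative tdrd6 had no call, at 517, 515 and 499 CPM and then 456 and 489.6 CPM (log2 fold change 0.16 ± 0.08, edgeR adjusted p = 0.0601). The deposited model of tdrd6 runs from 35535420 to 42664638 on chromosome 20, far beyond a usual gene, so its counts are uncertain. LOC568201 is bicc1a, for an RNA-binding protein of the Bicaudal-C family (6.34-fold lower), and LOC568973 is noctb, for a nocturnin-type protein (6.11-fold lower). The gene zgc:158856 is slbp2, an oocyte-type histone stem-loop binding protein, at 102, 103 and 100.4 CPM and then 20.5 and 15.4 CPM. The gene zgc:162969 is larp6b, of the La-related RNA-binding family, at 105, 95.9 and 108 CPM and then 18.9 and 20.6 CPM. The Smaug-type translational repressor gene samd4a, known in Drosophila for clearing maternal RNA, was 5.56-fold lower, and the synaptonemal complex gene sycp2l was 8.08-fold lower. Both stand under their own symbols and were also picked after their values were seen.

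Genes of messenger RNA decay and stability moved in both directions, with the larger number depending on the scaling. Of a list of 86 symbols of clearance and stability factors, 71 were in the deposited table and 64 qualified. Of these 64, btg4 was the sole member (1.56%, against 3.14%). Among the 68 tested factors outside the rule, 33 rose, 25 fell and 10 had no call by edgeR, with a median log2 fold change of 0.26 over all 69 tested. The balance turned with the scaling. With nuclear totals 22 rose and 29 fell, and with library totals 14 rose and 31 fell. Falls outside the rule included the decapping activator lsm1 (-2.46 ± 0.60) and the deadenylase subunit cnot7 (-2.31 ± 0.52), both with too few counts to qualify, and lsm14b (-1.81 ± 0.21), a component of RNA granules. The germ cell RNA-binding gene dazl (-1.51 ± 0.21), the zinc-finger genes cth1 (-1.45 ± 0.09) and zfp36l2 (-1.38 ± 0.15) and the Argonaute gene ago1 (-1.41 ± 0.19) fell too. Rises were led by igf2bp1 (2.36 ± 0.12), which binds and protects messages in mammals, by the Roquin-type gene rc3h1 (2.07 ± 0.10) and by ybx1, btg1 (1.41 ± 0.12) and the nonsense-mediated decay kinase gene smg1 (1.39 ± 0.10). Adjusted p-values of these named factors ranged from 2.70e-33 to 2.35e-04. Of 12 symbols listed for miR-430 targets known from reporter or target-protector work, 10 were in the deposited table. All 10 were tested, 5 qualified and 0 were members. With 3.14% of all qualifying genes being members, 5 genes are too few to read anything from this 0. Of the 10 tested, 5 rose, 4 fell and 1 had no call, while over all tested genes 31% rose and 31.8% fell. The Nodal and Lefty genes ndr1 (2.73), ndr2 (3.68), lft1 (2.64) and lft2 (3.19) and the chemokine gene cxcl12a (1.39) rose on the log2 scale, and cd82b (-1.63), nanos3 (-1.13), tdrd7 (-0.62) and ackr3b (-0.55) fell, with edgeR adjusted p from 1.26e-17 to 0.0419. Seed matches of miR-430 in the members were not analysed here, because no transcript sequence was used.

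Ordered by level per kilobase of exon at 4 hpf, the named members highest in the list were mid1ip1l at 249.6 CPM per kb, cldnd at 196, buc at 164, the kinase gene mknk2a at 159, cldng at 129.6 and ca15b at 108 CPM per kb. After them came the mitochondrial carrier gene slc25a25a at 96.8, btg4 at 88.2, the pyruvate dehydrogenase phosphatase gene pdp1 at 76.1, zar1l at 59.0, the ankyrin-repeat gene ankrd12 at 57.6 and the formin-type gene fhdc3 at 55.3 CPM per kb. Of the 11 pairs of neighbours in this order, 4 differed by less than the larger of their SDs between MBT libraries, namely buc and mknk2a, slc25a25a and btg4, zar1l and ankrd12, and ankrd12 and fhdc3. Clone-named members were skipped in it, and the highest of them was zgc:77112 (ppp1r3c2b in RefSeq, a glycogen-targeting phosphatase subunit) at 324 CPM per kb. The median over members was 16.9 CPM per kb, below the 25.5 CPM per kb over all qualifying genes.

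**Figure D3:**
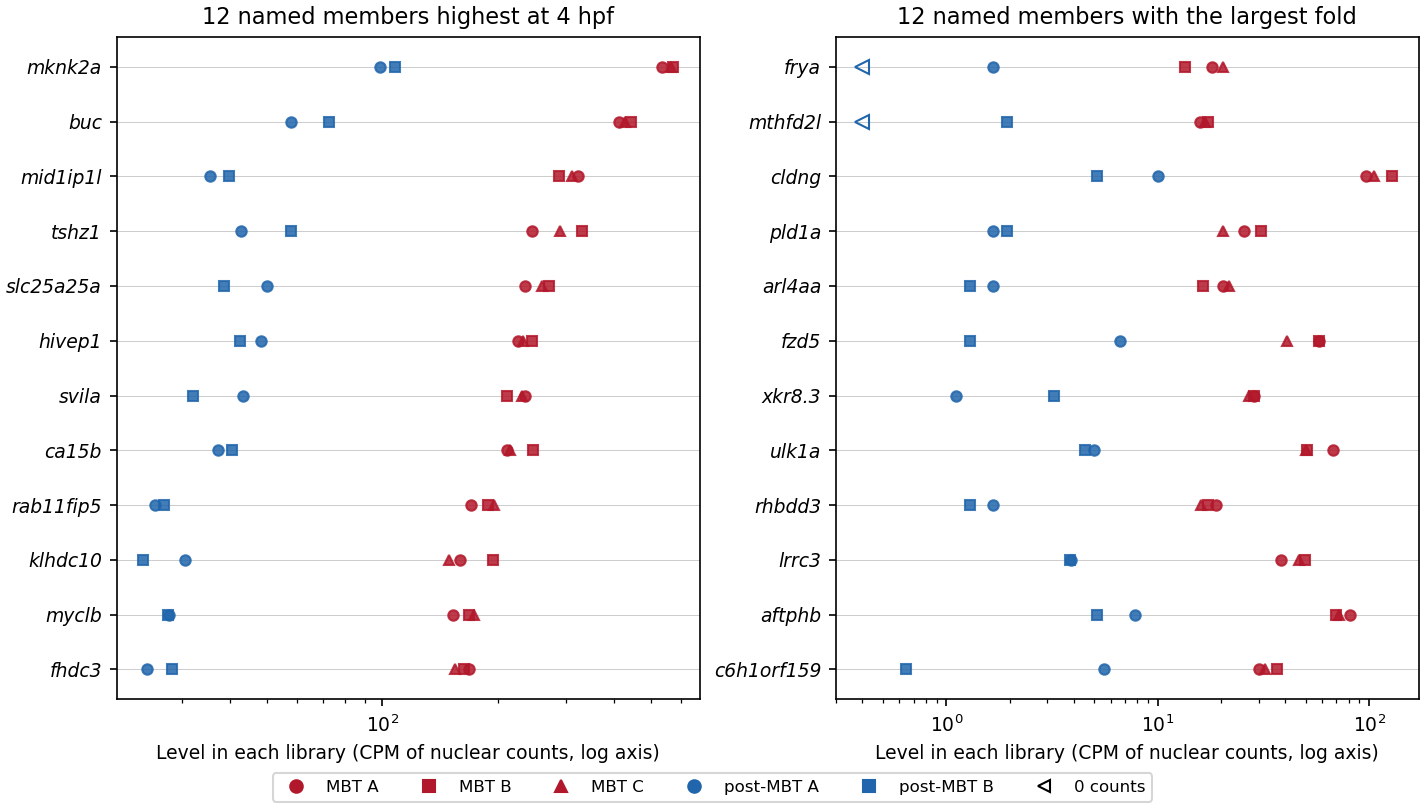
Level in each library, in CPM of nuclear counts on a log axis (x axis), for named members (y axis). The left panel holds the 12 with the highest mean CPM at 4 hpf and the right panel the 12 with the largest fold. Red symbols are the MBT libraries, blue symbols the post-MBT libraries, and open triangles at the left edge of the right panel stand for 0 counts. Red and blue never overlap within a gene, and the right panel lies mostly at lower levels, with frya at 1.67 and 0 CPM in the post-MBT libraries.

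Symbols starting as kinases had 6 members of 129 (4.65%) and those starting as phosphatases 4 of 102 (3.92%). Both intervals include the 3.14% over all qualifying genes. These counts read only the start of the symbol. Members such as the kinase genes mknk2a, rps6ka1 and mos and the phosphatase gene pdp1 are therefore not in them. The kinase gene mknk2a (chromosome 2, 23351141 to 23369301), whose product phosphorylates the cap-binding protein eIF4E in mammals, had the most counts of any member. It was at 533, 571 and 565 CPM at the MBT and 98.8 and 108 CPM after it, a 5.38-fold fall with an interval of 4.85 to 6.08. The autophagy-starting kinase gene ulk1a was at 67.7, 50.6 and 50.2 CPM and then 5.00 and 4.50 CPM, an 11.8-fold fall. Other members with kinase-type symbols were tnk2 (7.40-fold), for a non-receptor tyrosine kinase, prkca (5.78-fold), for protein kinase C alpha, and the energy-sensor subunit gene prkag2a (5.63-fold). The Hedgehog-pathway gene stk36 (5.44-fold) and the ribosomal S6 kinase gene rps6ka1 (9.27-fold) were members as well. Among phosphatase genes, ptpn4a was at 127, 125 and 127 CPM and then 26.7 and 21.9 CPM. The eIF2-alpha phosphatase subunit gene ppp1r15b was at 79.8, 86.7 and 85.8 CPM and then 9.44 and 9.65 CPM, and ppp3cca (calcineurin; 5.57-fold) and mtmr1b (a phosphoinositide phosphatase; 7.31-fold) were lower too. Both post-MBT libraries agreed closely for ulk1a and ppp1r15b.

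The Wnt receptor gene fzd5 (chromosome 9, 28421776 to 28423698) was at 57.9, 57.8 and 40.7 CPM at the MBT and at 6.66 and 1.29 CPM after it, a 13.1-fold fall with an interval of 7.42 to 23.5. Its post-MBT values rest on 12 and 2 counts, so its libraries at 5.3 hpf differ widely. The BMP receptor gene bmpr1ba was at 45.9, 29.9 and 24.7 CPM and then 4.44 and 1.93 CPM, and it overlaps another counted gene on the deposited map. The semaphorin gene sema6e, for a guidance ligand, was at 117, 139 and 112 CPM and then 18.9 and 25.1 CPM. The adhesion-type receptor gene gpr123 was 6.37-fold lower and the Eph receptor gene epha4b 6.34-fold lower, both from means under 20 CPM. Named after their values were seen, the relaxin-type receptor gene rxfp2b (6.26-fold), the neurotrophin receptor gene ntrk3a (7.23-fold) and the ligand gene pdgfc (6.94-fold) belonged here too.

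Transcription factor genes with high levels included tshz1, for a Teashirt zinc-finger protein, at 245, 332 and 290.3 CPM and then 42.8 and 57.9 CPM. The zinc-finger gene hivep1 was at 226, 246 and 232 CPM and then 48.3 and 42.5 CPM, and the Myc-family gene myclb at 153, 168 and 173 CPM and then 27.8 and 27.7 CPM. MBT libraries of tshz1 spread more widely than those of hivep1 and myclb, and none came near the post-MBT values. The GATA cofactor genes zfpm2a and zfpm2b are an a/b pair in which both copies were members, at 5.10-fold and 8.20-fold. BTB-type repressor genes zbtb21 (5.55-fold), zbtb20 (5.47-fold) and zbtb2a (5.48-fold) were lower by close to the limit of the rule. Chromatin-type symbols had 3 members of 114 (2.63%, interval 0.546 to 7.50%), near the 3.14% over all. The SWI/SNF subunit gene smarcc2, which belongs to the complexes built on the Brg1 and Brm ATPases that the series is about, was at 19.6, 14.5 and 22.6 CPM and then 3.33 and 0.643 CPM. Its fall was 9.49-fold with an interval of 4.06 to 22.3, and its post-MBT values rest on 6 and 1 counts. The SET-domain gene setd4 (5.31-fold) and the AT-rich binding gene arid5a (5.24-fold) were the other members with chromatin-type symbols. The Polycomb gene cbx8b (5.69-fold), the jumonji gene jmjd1cb (5.24-fold) and the arginine methyltransferase gene prmt6 (5.35-fold) were picked out after their values were seen.

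The gene frya (chromosome 15, 31920053 to 32052144), a homolog of the Drosophila Furry protein of cell shape and polarity, had the largest fold. It was at 18.1, 13.5 and 20.4 CPM at the MBT and 1.67 and 0 CPM after it, which is 20.8-fold with an interval of 6.18 to 92.7, since post-MBT libraries held 3 counts in all. The folate enzyme gene mthfd2l likewise rests on 3 post-MBT counts (17.2-fold, interval 6.18 to 92.7). Large folds with low post-MBT counts were also seen for the phospholipase gene pld1a (14.2-fold, 6.59 to 40.9), the Arf-like GTPase gene arl4aa (13.2-fold, 5.28 to 40.3), the scramblase-family gene xkr8.3 (12.9-fold, 6.35 to 34.1) and the rhomboid-type gene rhbdd3 (11.8-fold, 4.80 to 36.8). Both arl4aa and rhbdd3 overlap another counted gene. The leucine-rich repeat gene lrrc3 (11.6-fold), the clathrin-adaptor partner gene aftphb (11.5-fold) and c6h1orf159 (10.6-fold) complete the named members with the largest folds.

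The actin-binding supervillin gene svila was at 235, 211 and 231 CPM and then 43.3 and 32.2 CPM. The recycling-endosome gene rab11fip5 was at 170.0, 188 and 195 CPM and then 25.5 and 27.0 CPM, with both stages tight. The kelch-domain gene klhdc10 was at 159, 194 and 149 CPM and then 30.5 and 23.8 CPM. The trafficking genes snx10a, a sorting nexin (6.54-fold), and stx3a, a syntaxin of membrane fusion (7.50-fold), and the kinesin gene kif19 (8.19-fold) were members. GTPase regulator genes arhgap10 (5.39-fold), tbc1d25 (6.53-fold) and arfip2a (6.39-fold) were members too. Ubiquitin-pathway genes were usp45 (5.77-fold) and usp20 (8.30-fold), both for ubiquitin proteases, fbxl4 (6.25-fold), the E3 ligase genes march2 (6.74-fold) and rnf144ab (5.87-fold), and kbtbd7 (7.66-fold).

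Transporters and metabolic genes included slc25a25a, a mitochondrial carrier of ATP-magnesium and phosphate, at 235, 272 and 260.4 CPM and then 49.98 and 38.6 CPM. The sodium-calcium exchanger gene slc24a4a fell 6.18-fold, the nucleotide-sugar-type carrier gene slc35f2 6.71-fold and the anion transporter gene slc26a11 5.22-fold. The latter overlaps another counted gene. The phosphatase gene pdp1, which activates pyruvate dehydrogenase, was at 146, 178 and 148 CPM and then 30.5 and 28.3 CPM. Both zebrafish copies of PFKFB2, a regulator of glycolysis, were members, with pfkfb2a at 5.55-fold and pfkfb2b (listed as LOC564852) at 5.53-fold. This pair was noticed after its values were seen.

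Members were counted in 14 families read from the start of the symbol. Claudin and adhesion genes had 2 members of 19 (10.5%), receptors and ligands 6 of 72 (8.33%), solute carriers 7 of 118 (5.93%), zinc-finger and BTB genes 5 of 103 (4.85%), kinases 6 of 129 (4.65%) and phosphatases 4 of 102 (3.92%), beside 3.14% over all. Ubiquitin-type genes had 6 of 196 (3.06%), chromatin genes 3 of 114 (2.63%), small GTPases and their regulators 4 of 168 (2.38%), trafficking genes 3 of 145 (2.07%) and cytoskeletal genes 1 of 101 (0.990%). Symbols starting as cyclins and cell cycle genes had 0 members of 71 and RNA-binding symbols 0 of 76. The binomial intervals allow shares of up to 5.06% and 4.74% for these families. The RNA-binding count does not mean that the members lack such genes. It misses zar1l, whose symbol starts otherwise, and tdrd6b, bicc1a, slbp2 and larp6b, which stand under clone or locus names. Symbols starting as ribosomal proteins had 1 of 77, which is the kinase gene rps6ka1 and no ribosomal protein. The interval included 3.14% in all 14 families. Median folds of the families were 1.101 for cyclin and cell cycle symbols, 0.699 for RNA-binding symbols, 0.729 for ribosomal symbols and 0.983 for chromatin symbols. Values under 1 are higher at 5.3 hpf.

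**Figure D4:**
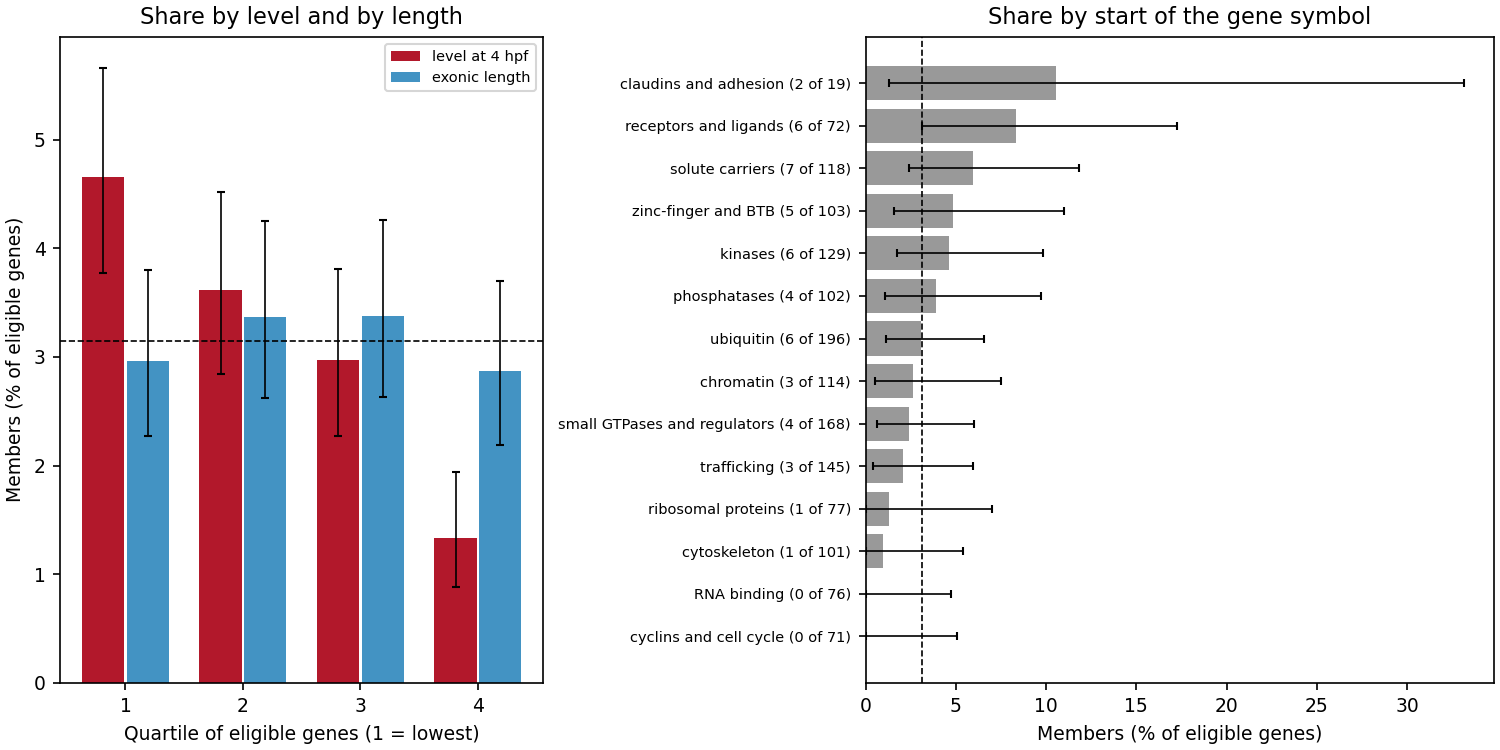
Members as a percent of qualifying genes, with 95% exact binomial intervals that cover counting of genes only. The left panel (y axis, percent) shows quartiles of mean level at 4 hpf (red) and of exonic length (blue), and the right panel (x axis, percent) the 14 symbol families with members of qualifying genes in brackets. Dashed lines mark 3.14% over all. The share falls from 4.65% to 1.34% over the level quartiles and stays between 2.87% and 3.37% over the length quartiles.

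Members were drawn mostly from genes of low and middle level. The share of members was 4.65% (94 of 2020) in the lowest quartile of 4 hpf level, 3.61% in the second, 2.97% in the third and 1.34% (27 of 2020) in the highest. Their median at 4 hpf was 45.7 CPM, against 63.5 CPM over all qualifying genes, and at 5.3 hpf 6.99 CPM against 47.7 CPM. The 4 hpf level enters the rule, so this is a description. Low counts also vary more, and the median coefficient of variation among the MBT libraries was 12.1% for members and 10.2% for all qualifying genes. The part of counting error in the low-level share was not tested.

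Members were close to all qualifying genes in length. Their median exonic length was 2641.5 bases, against 2649 bases over all qualifying genes, and the share by length quartile was 2.96, 3.37, 3.37 and 2.87%. Median genomic span was 18844.5 bases, against 20049 bases. Genes annotated as a single block were 9 members (3.54%), against 1.96% of qualifying genes. By chromosome, shares ranged from 1.22% on chromosome 20 (4 of 329) to 5.54% on chromosome 8 (19 of 343, 95% exact binomial interval 3.37 to 8.52%), the highest of 25 chromosomes. Clone or locus names made up 24.4% of members (62 genes) and 18.9% of qualifying genes, and 28 of the 62 have a gene name in the RefSeq table.

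Counts carry no strand, so part of a count may come from another counted gene that overlaps on the map. Overlaps were read from whole gene spans, introns included, and spans over 2000000 bases were left out. The authors masked overlapping annotations for exonic length, and how far shared stretches enter the counts was not tested. Such overlaps touched 26 members (10.2%) and 957 qualifying genes (11.8%). Besides those named above they include zfpm2a, nucb2b, mllt3, chek2, spryd3, arhgap10, mtr, fkrp, alg1, btbd6b and mcf2la. The authors' deposited table also compares exon use within genes. It lists such a comparison for 2 members, svila and pdia4, each with a score of 0, and for 780 qualifying genes. A score of at least 10 was reached by 101 qualifying genes (1.25%) and 0 members. Why few members have a listed comparison was not tested.

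Zebrafish keep many gene pairs from an ancient genome duplication, written with the suffixes a and b. Pairs were read here from the suffix letters of the deposited symbols alone, and 54 of these symbol pairs held a member. Whether each pair stems from the genome duplication was not tested, and ca15a and ca15b lie near each other on chromosome 12. In 53 of the 54 a single copy was a member, and in the pair zfpm2a and zfpm2b both were. Among the partners outside the rule, 30 had under 20 counts in a 4 hpf library and could not be members. Members were also only 3.14% of all qualifying genes, so nothing is read from the count of single copies. Clone and locus names were skipped, so pfkfb2a and pfkfb2b (LOC564852), both members, are not among the 54. Of the 53 partners outside the rule, 20 were too low to test, with means of at most 2.78 CPM at 4 hpf and 5.80 CPM at 5.3 hpf, and 33 were tested. Among these, 9 rose, 12 fell and 12 had no call by edgeR, beside 31% and 31.8% of all tested genes, and their median log2 fold change was -0.17. With nuclear totals 5 partners rose and 14 fell, and with library totals 5 rose and 17 fell.

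The partner of the member with the largest fold rose. At 4 hpf frya and fryb were at 17.3 ± 3.50 and 19.5 ± 2.07 CPM (SD, n = 3). After the MBT frya was at 1.67 and 0 CPM while fryb (chromosome 10, 33951435 to 34054274) was at 106 and 115 CPM, a log2 fold change of 2.78 ± 0.17 (edgeR adjusted p = 1.22e-24). In the angiomotin-like pair, of junction and polarity proteins, amotl2a went from 172, 153 and 152 CPM to 433 and 428 CPM (log2 fold change 1.72 ± 0.09, edgeR adjusted p = 5.87e-29), and the member amotl2b from 72.2, 75.6 and 87.3 CPM to 7.77 and 16.1 CPM. In the anoctamin pair ano5a rose from 3.01, 0 and 1.45 CPM to 11.7 and 9.65 CPM (3.27 ± 0.60, edgeR adjusted p = 1.80e-06), while ano5b was at 100.1, 105 and 103 CPM and then 16.7 and 23.2 CPM. Smaller rises were those of arl4ab (1.35 ± 0.32) and tmem198a (1.08 ± 0.20). These 5 rises kept their call under all 11 alternatives. The rises of nucb2a (1.03 ± 0.38), mknk2b (0.43 ± 0.11), rragcb (0.40 ± 0.16) and pias4a (0.22 ± 0.10) lost their call on the nuclear-total scale, where pias4a was -0.054. Calls were also lost without single libraries, for nucb2a without MBT A, MBT B or post-MBT B, for rragcb without MBT A, MBT B or post-MBT A, and for pias4a without MBT A, MBT C or post-MBT B. The edgeR adjusted p of these smaller rises ranged from 4.08e-06 to 0.0468.

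Several partners with no call on the TMM scale were abundant at both stages. At 5.3 hpf ulk1b stood at 160.5 and 183 CPM, after 204, 179.7 and 174 CPM at 4 hpf (log2 fold change 0.16 ± 0.11, edgeR adjusted p = 0.18), while its member ulk1a fell as given above. The Myc-family partner mycla was at 534, 519 and 507 CPM and then 408 and 429.7 CPM (log2 fold change -0.04 ± 0.08, edgeR adjusted p = 0.684). In CPM of nuclear counts mycla was 1.24-fold lower at 5.3 hpf, and its call on that scale was not read. Other partners fell with the member. The largest falls were those of tmem51b (-1.81 ± 0.21), fam129ba (-1.69 ± 0.17), the Polycomb gene cbx8a (-1.51 ± 0.41), ptpn4b (-1.48 ± 0.16), st3gal3a (-1.36 ± 0.20) and svilb (-1.24 ± 0.20), with edgeR adjusted p from 1.32e-14 to 9.52e-04. All of these changed less than the member of their pair did, and those members were chosen for large falls. The difference within a pair was not tested.

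**Figure D5:**
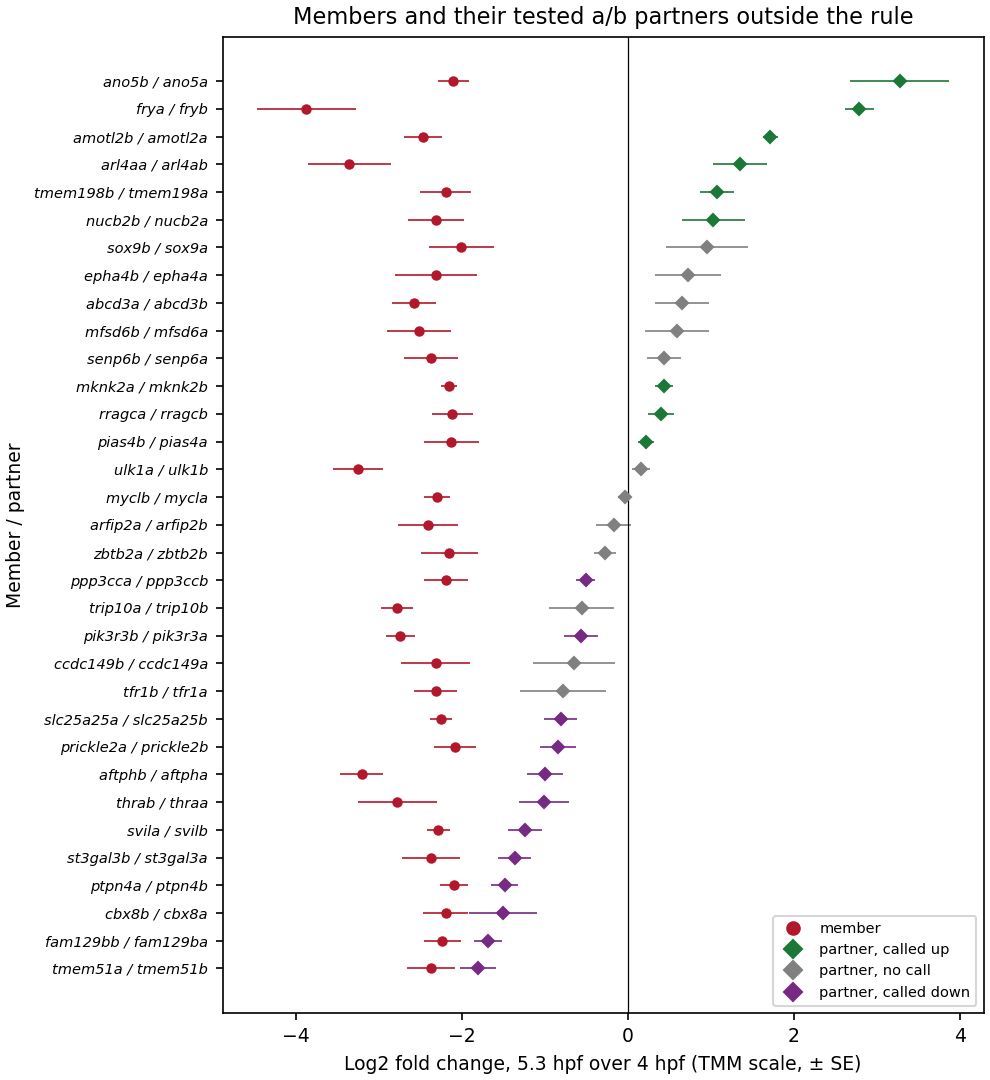
Log2 fold change of 5.3 hpf over 4 hpf on the TMM scale (x axis, bars ± SE) for members (red circles) and their tested a/b partners outside the rule (diamonds; 33 pairs, y axis). Green diamonds are the 9 partners called up, purple the 12 called down and grey the 12 with no call. Members lie below -2 because the rule chose them, while partners run from -1.81 for tmem51b to 3.27 for ano5a.

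The name of the group was set beside genes known to be made by the embryo. The list was written with earlier results of these data known. Of 35 early zygotic genes, 33 were in the deposited table, 19 qualified and 0 were members. With 3.14% of all qualifying genes being members, 19 genes are too few for this 0 to check the name. Of 31 tested, 27 rose, 3 fell and 1 had no call by edgeR. Over all tested genes 31% rose and 31.8% fell. The mesoderm gene ta went from 18.6 ± 3.63 to 711 ± 53.9 CPM and the ventral repressor gene vox from 15.5 ± 5.44 to 151 ± 5.38 CPM. The 3 that fell were her5 (46.7 ± 7.84 to 17.6 ± 0.565 CPM; edgeR adjusted p = 2.80e-05), irx7 (32.5 ± 1.93 to 17.2 ± 0.737 CPM; 0.0223) and mxtx2 (30.9 ± 2.24 to 17.3 ± 6.44 CPM; 0.0454). A single fall was called without post-MBT A, and a single one with the DESeq2 Wald test. In CPM of nuclear counts the falls were 2.65-fold for her5, 1.88-fold for irx7 and 1.78-fold for mxtx2, all short of the 5-fold rule. On the TMM scale of the calls their log2 fold changes were -1.10, -0.62 and -0.57. Falls of this size were thus also seen for genes listed as zygotic, and origin cannot be read from such a fall alone. Maternal RNA of these genes was not measured. Whether a 5-fold fall marks a transcript as maternal cannot be read from these genes. All 4 enveloping layer markers rose, among them krt4 from 47.5 ± 9.05 to 293 ± 4.69 CPM. Of 6 blastula markers 4 rose and 2 fell, and of 3 yolk syncytial layer markers 2 rose and 1 fell. Of 12 listed markers of differentiated tissues, 5 were in the deposited table. These 5 had at most 10 counts in any library, and none was tested. Whether the makeup of the embryo changed between the stages, and how far that bears on the members, was not tested.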

How the data were processed

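Counts, coordinates and exonic lengths came from 1 deposited table of 22656 genes. The counts per gene and library are, per the file headers, alignments that overlap a gene, with read pairs counted once. The log2 ratio of 4 hpf over 5.3 hpf and the log2 exon difference are the authors' values, per the file headers. The deposited score is 10 times the −log10 of an adjusted p-value, per the file headers. Exonic length in base pairs was made by the authors after masking overlapping annotations, per the file headers. Novoalign 2.8 and DESeq2 are named in the submitters' processing notes. The treatment of multiply mapped reads was not given in the sources used here. A further 10 columns of per-library values were not used.

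CPM was each count over the library's nuclear counts; the table holds 15 mitochondrial and 92 microRNA rows, which were left out of the rule. Intervals of the fold are exact 95% intervals of the ratio of summed counts, and shares carry exact binomial (Clopper-Pearson) intervals. Where a library has 0 counts, the limit is 3 counts, or 1.45 to 2.26 CPM. Stage changes of genes outside the rule were tested with edgeR 4.0.16 in R 4.3.3 (filterByExpr with a minimum of 10 counts, TMM factors, robust quasi-likelihood test), with Benjamini-Hochberg adjustment over all 12007 tested genes and a threshold of 0.05. Log2 fold changes give post-MBT relative to MBT, ± SE. With 5 libraries there are 10 ways to split them into 3 and 2, which limits an exact permutation test to a smallest p of 0.1, and none was run. DESeq2 1.42.0 was an alternative. The scripts were tested on simulated data. Means are given ± SD.

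The members and gene lists were chosen with earlier results of these data known. Named members are the 12 with the largest fold, the highest CPM and the highest CPM per kb at 4 hpf (clone and locus names skipped), the 4 genes on each side of the limit, and up to 5 of each family and list. Other members were named after their values were seen. Pairs ending in a and b were left out where the letters name separate human genes (chkb, arid5a, ppp1r15b and atp9b). Gene names for locus IDs came from the RefSeq gene table of assembly GRCz12tu, used for names only.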

Additional observations from a re-analysis of the deposited data

How the results depend on the processing

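The number of members was 147 with TMM factors, 142 with DESeq2 size factors, 137 with a minimum of 50 counts, 113 with the lowest MBT over the highest post-MBT library, 85 by the log2 ratio in the authors' deposited table, 493 at 4-fold and 22 at 10-fold. It was 335 with mitochondrial counts in the totals, 346 with a minimum of 10 counts and 251 to 303 without single libraries. With all counts as denominator the members held 0.926% at the MBT and 0.131% after it, and genes chosen without a library held 1.76 to 1.79% and 0.350 to 0.357% in it. Genes called up were 2173 with library totals (5574 down), genes called down 2539 with the DESeq2 Wald test, and clearance factors called up 14 with library totals (31 down). Partners called up were 5 with library totals (17 down) and 5 with nuclear totals (14 down). Listed egg genes called up outside the rule were 3 with the DESeq2 Wald test, 2 with library totals, 2 with nuclear totals and 3 to 5 without single libraries (3 without post-MBT B). Early zygotic genes called down were 1 with the DESeq2 Wald test and 1 to 3 without single libraries (1 without post-MBT A). The log2 fold change of rragcb was -0.0091 with library totals, and that of pias4a was -0.19 with library totals and -0.054 with nuclear totals. Single refits were read for 33 genes outside the rule, namely the clearance factors with the largest changes and the a/b partners with a call. Other genes named outside the rule were not read one by one. Of 363 refits of the 33 genes under 11 alternatives, 337 kept direction and call, 23 lost the call and 3 turned direction. The cause was not tested. Nuclear totals and the 4-fold and 10-fold limits were chosen after seeing the data. With nuclear totals the median log2 fold change of tested genes was 0.27 lower than with TMM factors, and with library totals 0.41 lower. Under every alternative all 254 members passed the edgeR or DESeq2 threshold, which their choice fixes. With exon score thresholds of 20 and 30 the count of members stayed at 0. No paired analysis was possible because the count columns carry no replicate numbers of the labels. Seed matches of miR-430, promoters, proteins and exon numbers were not analysed here. Depth limits the members' post-MBT values, whose summed counts had a median of 23.5.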
